A study of Sus scrofa with 6 samples.

Results

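Genes of orphan and adhesion G protein-coupled receptors were followed in pig (Sus scrofa) oocytes after and before maturation in culture. The members were the probes whose platform annotation gave a single gene symbol starting with GPR or ADGR, with the brightest probe standing for a gene. This rule gave 53 genes with 1 probe each, among 10663 genes with a single symbol and 12258 probes on the array table. No measured value other than brightness entered the rule. The letters cover more than orphan receptors, since several members have known ligands, and GPRASP1, GPRASP2, GPRIN1 and GPRIN3 encode proteins that bind receptors or G proteins and are not receptors themselves. Of 3 further probes that carry such a symbol beside a second entry, GPR83 and GPR137B are listed with the symbol repeated and GPR39 together with LYPD1, and these 3 were not counted.

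The matured group held 3 pools of 50 oocytes. Their cumulus-oocyte complexes, oocytes enclosed in somatic cumulus cells, had been cultured for 44 h at 38 °C under 5% CO2. The medium was TCM-199 with bicarbonate, pyruvate, bovine serum albumin, cysteine, 10% porcine follicular fluid, and the gonadotropins hCG and eCG at 2.5 IU/ml each. The group before maturation, titled in vivo oocytes, held 3 pools of 50 oocytes taken ahead of that culture. All pools came from ovaries of pubertal crossbred Landrace gilts collected at slaughter. A dye test for sorting oocytes is named for the series but is not tied to single samples. Since culture was applied to the matured pools alone, maturation and culture cannot be told apart. In pooled samples fewer cells of a type and less RNA per cell cannot be told apart either.

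Per array, the mean log2 level of 10 measured oocyte markers lay between 10.61 and 10.67 after maturation, against 10.76 to 10.89 before it, with 3 markers lower and 0 under the arrays' lower quartiles. Of 13 markers of cumulus and granulosa cells, 7 fell and 2 rose, with a mean log2 level per array of 6.73 to 6.91 after maturation and 7.55 to 7.87 before it. Of 6 endothelial markers 0 were called and of 11 leukocyte and erythroid markers 1 rose, with mean levels of 5.19 to 5.39 and 4.81 to 4.96 after maturation against 4.99 to 5.06 and 4.63 to 4.67 before it. Theca and stromal markers (11 measured) held 2 rises and 1 fall, with mean levels of 4.95 to 5.04 after maturation and 4.90 to 5.14 before it. The labels do not say whether cumulus cells were removed before RNA was extracted, so the pools may hold somatic RNA. The part of these other cells in the results on receptors was not tested.

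G protein-coupled receptors cross the cell membrane repeatedly and pass signals to G proteins inside the cell. In mammalian oocytes, receptors that stimulate adenylyl cyclase without an added ligand keep cyclic AMP high and hold meiosis in arrest, and the fall of cyclic AMP precedes the resumption of meiosis. Adhesion receptors have a long extracellular part that binds matrix proteins or proteins of neighbouring cells, and many cut themselves close to the membrane, which frees a stretch that can activate the receptor. An orphan receptor is one for which no natural ligand is agreed on.

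Of the 53 genes, 4 rose (ADGRG6, ADGRA2, GPR182 and GPR146) and 3 fell (GPRIN3, ADGRL2 and ADGRG1), while 46 did not pass the test (limma across all probes, Benjamini-Hochberg adjusted p under 0.05). Of all probes, 3.21% were called higher and 8.07% lower, and in both directions together 13.2% of the members and 11.3% of all probes were called, a difference too small to read as a result about the members. A change of at least 2-fold was measured for GPRIN3 and ADGRG6, the only called members with one, beside 435 called probes among all 12258. The arrays of the groups did not overlap in the higher direction for 16 members and in the lower for 7, beside 21.7% and 14.4% of all probes. The median log2 difference, after minus before maturation, was 0.14 over the members and 0.08 over all probes, and 37 members (69.8%) had a positive difference, beside 65.4% of all probes. These differences are relative to the deposited scale. With the arrays shifted so that 41 ribosomal protein probes stay level, which assumes that those genes did not change, 42 members were called higher and 2 lower, beside 80.3% and 4.03% of all probes. That shift puts the median of all probes at 0.58 and of the members at 0.64. It adds 1 amount to every difference, so the distance of 0.06 between these medians cannot change and shows nothing about stability.

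**Figure D1:**
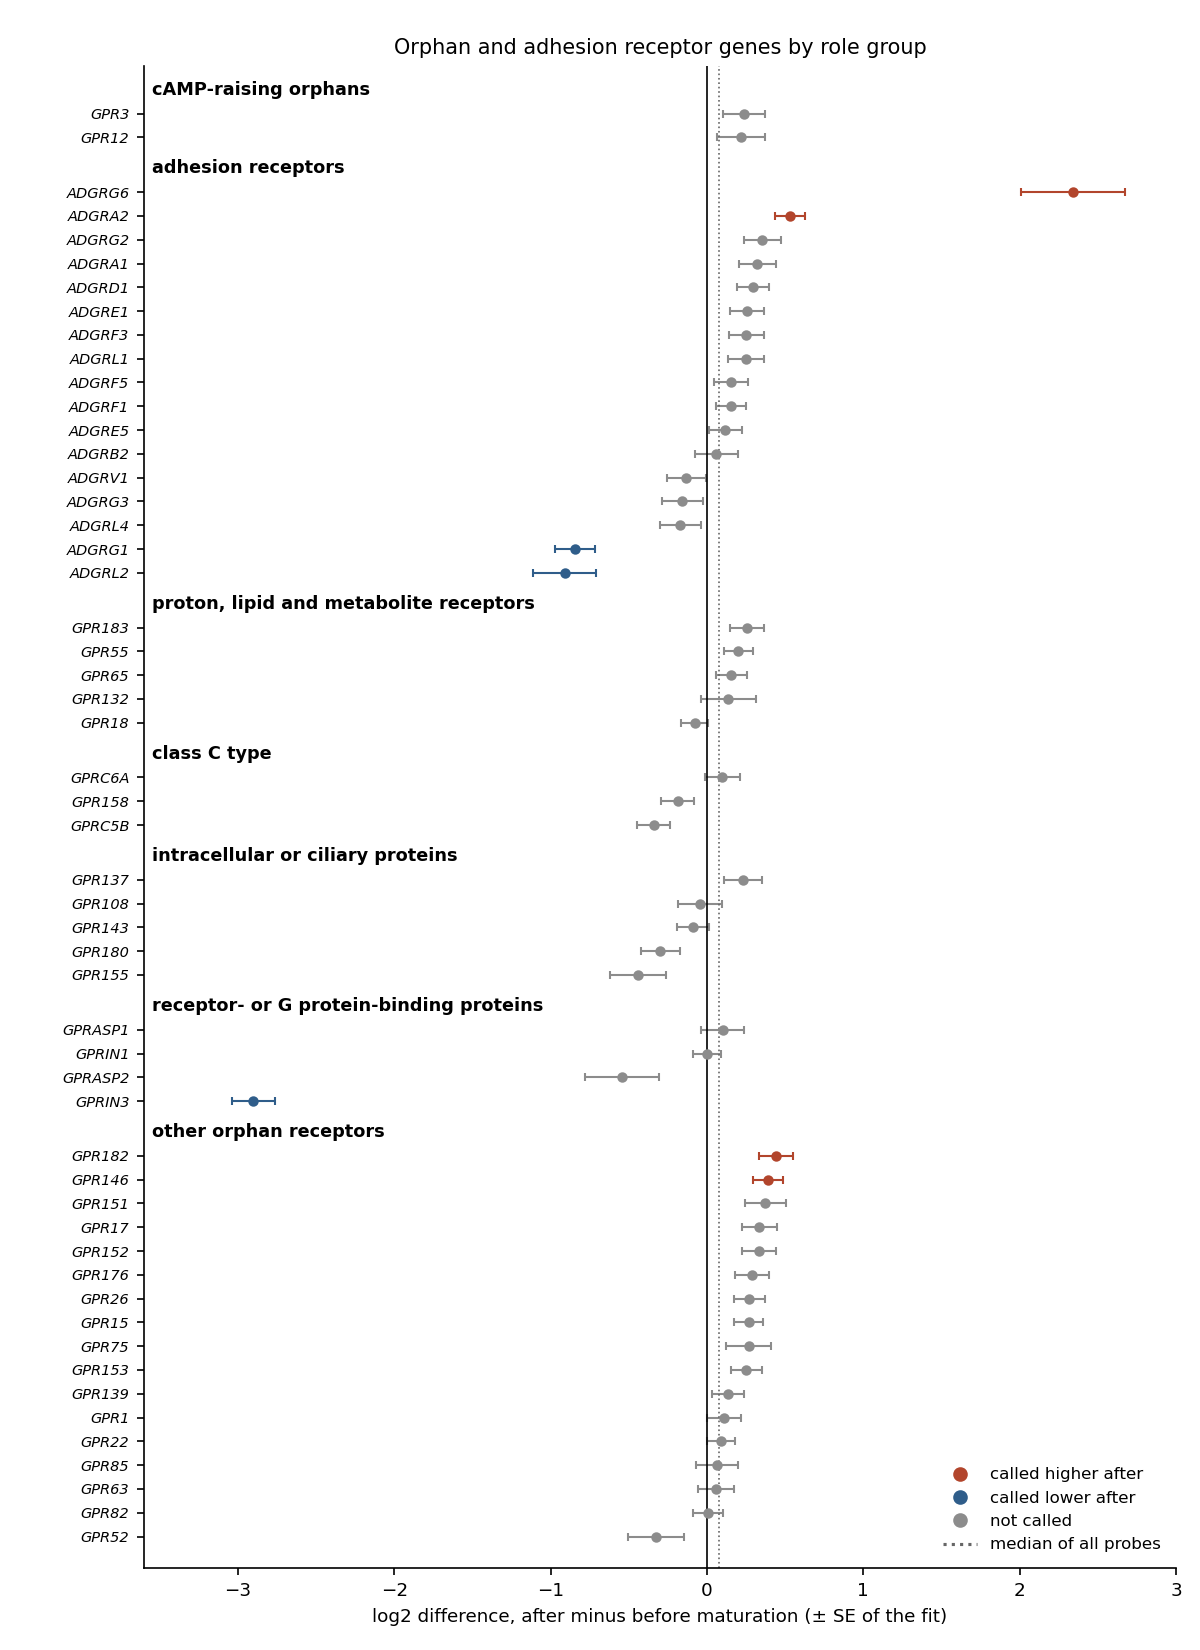
Log2 difference (after minus before maturation, horizontal axis) with the standard error of the fit for each of the 53 genes, grouped by role. The 46 genes not called sit between -0.54 and 0.37, and ADGRG6 and GPRIN3 stand apart at 2.34 and -2.90. The dotted line marks the median of all probes.

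The receptors known for meiotic arrest did not pass the test. GPR3, which keeps cyclic AMP high in mouse oocytes, had log2 levels of 4.74, 5.01 and 4.91 after maturation, against 4.92, 4.52 and 4.53 before it. GPR12, its close relative with the same kind of activity, had 6.36, 6.10 and 5.90 after maturation, against 6.17, 5.80 and 5.74 before it. The arrays of the groups overlapped for both genes. Their differences were 0.24 ± 0.13 and 0.22 ± 0.15 (SE), with limma adjusted p of 0.275 and 0.372. Leaving out single arrays moved the difference between 0.17 and 0.37 for GPR3 and between 0.10 and 0.35 for GPR12. GPR3 was highest without replicate 1 before maturation, and GPR12 lowest without replicate 1 after maturation and highest without replicate 1 before it. The within-array log2 ratio of GPR3 to GPR12 averaged -1.23 ± 0.34 after maturation and -1.25 ± 0.03 before it (SD, n = 3 each). GPR6 was not analysed here.

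Around these receptors, the cyclic AMP machinery held 1 rise and 3 falls among 16 measured genes, beside 3.21% and 8.07% of all probes. NPR2, which encodes the cyclic GMP-producing natriuretic peptide receptor of follicle cells, fell to 5.18, 5.43 and 5.62 after maturation, against 7.06, 6.92 and 7.43 before it (log2 difference -1.72 ± 0.16 SE, limma adjusted p = 0.000388). Of the 13 cumulus and granulosa markers given above, 7 fell like NPR2, 2 rose and 4 were not called. Of the 10 oocyte markers 3 fell, 0 rose and 7 were not called. The part of either marker set was not tested. PRKAR2A and PRKAR1A, regulatory subunit genes of protein kinase A, fell by 0.80 and 0.47 on the log2 scale (adjusted p = 0.0237 and 0.0426), and ADCY8, an adenylyl cyclase gene, rose by 0.40 (adjusted p = 0.0446, and 0.0535 with the replicate block). The ADCY8 probe lay under the lower quartile on 2 of 3 arrays after maturation and on all 3 before it. The calls of PRKAR1A and ADCY8 ended whichever single array was left out, and with ribosomal protein genes held level PRKAR1A had a difference of 0.036. PRKAR2A was not called under that scaling, nor without replicate 1 or 2 after maturation or replicate 3 before it. PDE3A, which encodes the phosphodiesterase that degrades cyclic AMP in the oocyte, had a difference of 0.12 (adjusted p = 0.369). ADCY3 had 0.33 (adjusted p = 0.157) and GNAS, the gene of the stimulatory G protein subunit, -0.03 (adjusted p = 0.905).

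The 17 adhesion receptor genes held 2 rises and 2 falls, beside 3.21% and 8.07% of all probes, with 13 genes short of the threshold. The 4 changes came from different subfamilies or went opposite ways within one. ADGRG6 encodes GPR126, a receptor for laminin and collagen IV that raises cyclic AMP in Schwann cells. Its log2 level was 6.17, 6.21 and 7.50 after maturation, against 4.61, 4.13 and 4.12 before it. Every matured array lay above every array before maturation, and replicate 3 after maturation lay highest. The difference was 2.34 ± 0.33 (SE), a measured 5.07-fold higher level (limma adjusted p = 0.00329), and 1.91 without that array. Before maturation 2 of 3 arrays had ADGRG6 under their lower quartile, so the measured fold is not exact.

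ADGRA2 encodes GPR124, which acts with RECK in WNT7 signalling of brain endothelium. It had log2 levels of 5.11, 5.16 and 5.03 after maturation, against 4.47, 4.68 and 4.56 before it. The groups did not overlap, and the rise of 0.53 ± 0.10 (SE) was a 1.45-fold higher level (limma adjusted p = 0.00998). RECK had a difference of 0.08 (adjusted p = 0.727). ADGRA1, a brain-expressed relative of ADGRA2, had 4.98, 5.02 and 5.09 after maturation, against 4.79, 4.85 and 4.47 before it, with a difference of 0.32 (adjusted p = 0.118).

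ADGRG1 encodes GPR56, a collagen III receptor of the developing brain, and lies directly beside ADGRG3 in the RefSeq order of protein-coding genes. ADGRG1 had log2 levels of 9.30, 9.06 and 8.98 after maturation, against 10.09, 9.75 and 10.03 before it, with no overlap. The difference was -0.85 ± 0.13 (SE), a 1.80-fold lower level (limma adjusted p = 0.00455). Holding ribosomal protein genes level made it -0.34 without a call (adjusted p = 0.0588). ADGRG3, a granulocyte receptor gene, had a difference of -0.16 (adjusted p = 0.451).

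ADGRL2, a latrophilin gene whose product binds teneurins and FLRT proteins, had log2 levels of 6.40, 6.50 and 6.66 after maturation, against 7.11, 7.24 and 7.94 before it. The groups did not overlap, and replicate 3 before maturation lay highest. The difference was -0.91 ± 0.20 (SE), a 1.88-fold lower level (limma adjusted p = 0.0252). The call ended without any 1 of the 3 matured arrays (adjusted p of 0.104, 0.0927 and 0.0535 without replicate 1, 2 or 3) and after a second quantile normalization (adjusted p = 0.0539). The other latrophilin gene among the members, ADGRL1, had a difference of 0.25 (adjusted p = 0.185), and ADGRL4, an endothelial receptor gene, had -0.17 (adjusted p = 0.408). Like ADGRG1 and ADGRL2, the cumulus and granulosa markers had a lower mean level on the matured arrays (7 of 13 fell, 2 rose). The mean level of the oocyte markers was lower there too (3 of 10 fell, 0 rose). The part of either marker set was not tested.

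**Figure D2:**
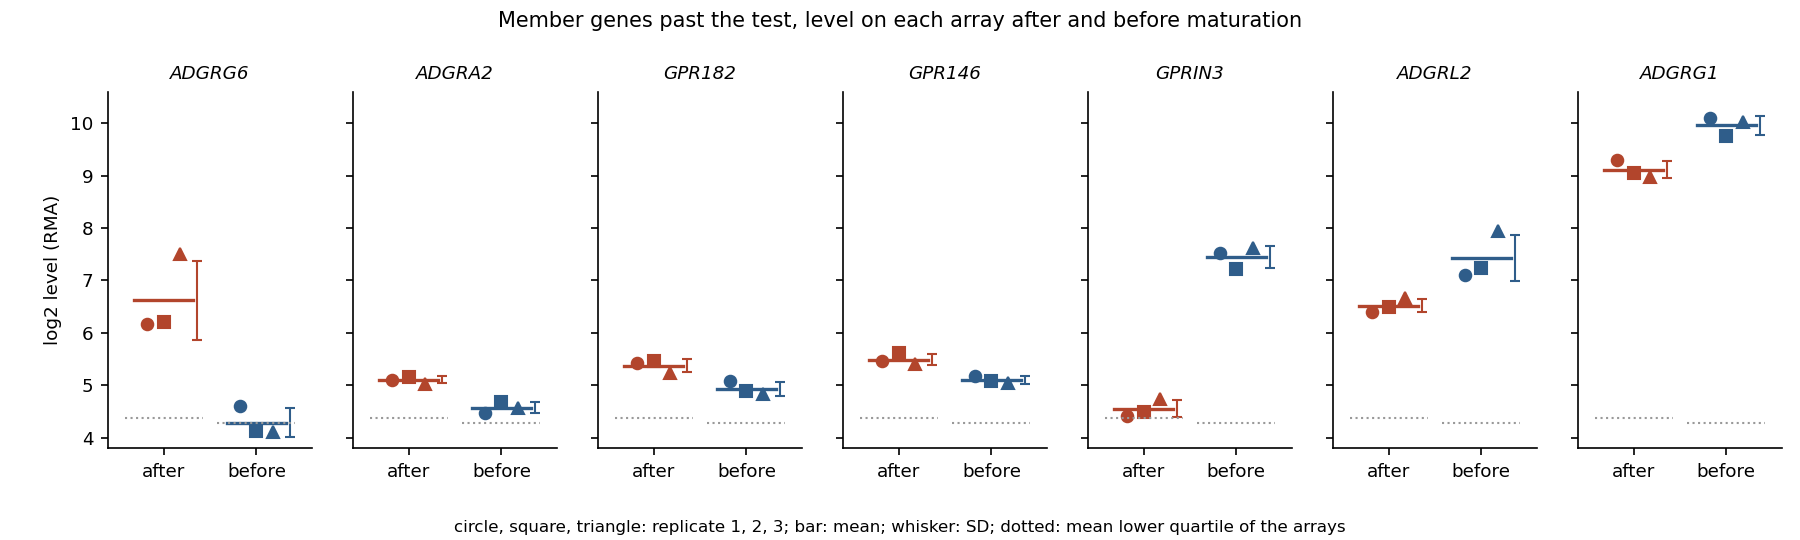
Log2 level (vertical axis) of the 7 genes past the test on each array, after and before maturation, with mean and SD (n = 3). The groups do not overlap in any panel, and the ADGRG6 panel shows replicate 3 after maturation above the other two.

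The remaining adhesion receptors had differences between -0.17 and 0.35. ADGRG2, known from the male reproductive tract, had 5.80, 5.76 and 5.98 after maturation, against 5.69, 5.43 and 5.36 before it (difference 0.35 ± 0.12 SE, limma adjusted p = 0.0929). ADGRD1, whose loss in mice traps ovulated oocytes in the oviduct, had a difference of 0.30 (adjusted p = 0.0985). The arrays did not overlap for ADGRG2, ADGRA1, ADGRD1 and ADGRE1, each higher after maturation, as for 21.7% of all probes. None of these genes passed the test. ADGRE1, the F4/80 macrophage antigen gene of mice, had 0.26 beside the leukocyte marker levels given above. ADGRF3 had 0.25, ADGRF5, which restrains lung surfactant, 0.16, ADGRF1, a synaptamide receptor gene, 0.15, and ADGRB2 0.06. ADGRV1, the large receptor gene of Usher syndrome, had -0.13. ADGRF5 and ADGRL4 lay under the lower quartile on all 6 arrays.

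Ratios of members of 1 subfamily within an array do not depend on shifting whole arrays, and 17 such ratios were computed, of which 9 did not overlap between the groups. Of these 9, 5 contain ADGRG6 or ADGRG1, and 3 contain ADGRL4 or GPRIN1, whose probes lay under the lower quartile on all 6 arrays. The share of ratios without overlap over all features was not computed, so nothing is read from the count. ADGRG6 over ADGRG1 was -3.13, -2.85 and -1.48 (log2) after maturation, against -5.48, -5.62 and -5.91 before it, a change of 3.19. ADGRL1 over ADGRL2 was -1.33, -1.45 and -1.77 after maturation, against -2.18, -2.66 and -3.19 before it, a change of 1.16. With 3 arrays against 3 an exact two-sided permutation test cannot give a p under 0.1, the value each of the 9 reached, and adjusted over the 17 ratios it was 0.189. ADGRA2 over ADGRA1 changed by 0.21 with overlapping arrays, and ratios among ADGRF1, ADGRF3 and ADGRF5 by at most 0.098, also with overlap.

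**Figure D3:**
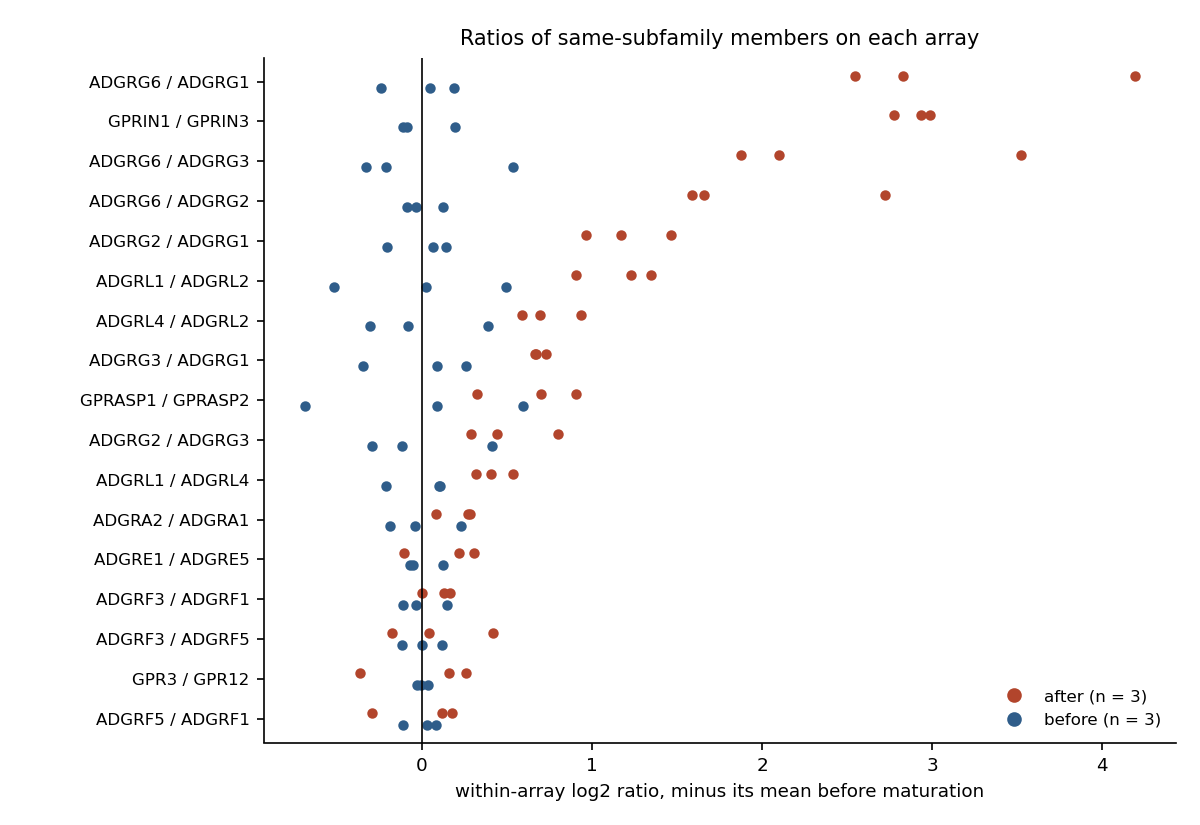
Within-array log2 ratios of same-subfamily members (horizontal axis, set to 0 at the mean before maturation), 3 arrays after and 3 before maturation. Each ratio has the member with the higher difference on top, so all changes are positive by construction. The 9 ratios without overlap involve ADGRG, ADGRL and GPRIN members.

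Genes of known ligands and co-receptors of adhesion receptors included the strong falls of CD55 and LAMA2. The list held 22 measured genes, with 2 rises and 4 falls, beside 3.21% and 8.07% of all probes, and 16 genes short of the threshold. Its median difference was 0.06 beside 0.08 for all probes. CD55, the complement regulator that binds ADGRE5, was at 4.18, 4.25 and 3.99 after maturation, against 8.87, 8.87 and 9.38 before it (difference -4.90, limma adjusted p = 2.18e-06). ADGRE5 itself, also known as CD97, was at 4.80, 4.71 and 5.02 after maturation, against 4.77, 4.67 and 4.72 before it (difference 0.12 ± 0.10 SE, adjusted p = 0.478). The ligand's probe lay under the lower quartile of every matured array, while the receptor's arrays overlapped between the groups.

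LAMA2, the laminin alpha 2 gene of the ADGRG6 ligand laminin-211, had log2 levels of 5.44, 5.75 and 5.74 after maturation, against 7.67, 7.55 and 8.27 before it. It fell by 2.19 ± 0.19 on the log2 scale (limma adjusted p = 0.000244), opposite in sign to ADGRG6. PRNP, whose prion protein product also binds ADGRG6, fell by 0.38 (adjusted p = 0.0434). PRNP was no longer called once replicates were blocked (adjusted p = 0.0538) or when any of 5 of the 6 arrays was left out, and the difference was 0.12 with ribosomal protein genes held level. COL4A2, a collagen IV gene, had a difference of -0.33 without overlap and did not pass the test (adjusted p = 0.0572). COL3A1, the collagen III gene of the ADGRG1 ligand, rose by 0.37 (adjusted p = 0.0493) where ADGRG1 fell. Before maturation its probe lay under the lower quartile of all 3 arrays, and its call held only without replicate 3 after maturation when single arrays were left out. TENM3, a teneurin gene, rose by 0.42 (adjusted p = 0.0286), while TENM1 and FLRT3 had -0.57 and -0.53 without passing the test (adjusted p = 0.107 and 0.0814). The TENM3 call held only without replicate 2 after maturation or replicate 1 before it. C1QL3, which encodes a ligand of the related receptor ADGRB3, fell by 1.15 (adjusted p = 0.0110), a call that ended without replicate 2 after maturation. TGM2 and THY1, whose products bind ADGRG1 and ADGRE5, had differences of -0.07 and 0.05 (adjusted p = 0.619 and 0.842). The THY1 probe lay under the lower quartile on all 6 arrays, which limits what it can show. With the replicate block 4 genes of this list were called higher, beside 2 without it.

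**Figure D4:**
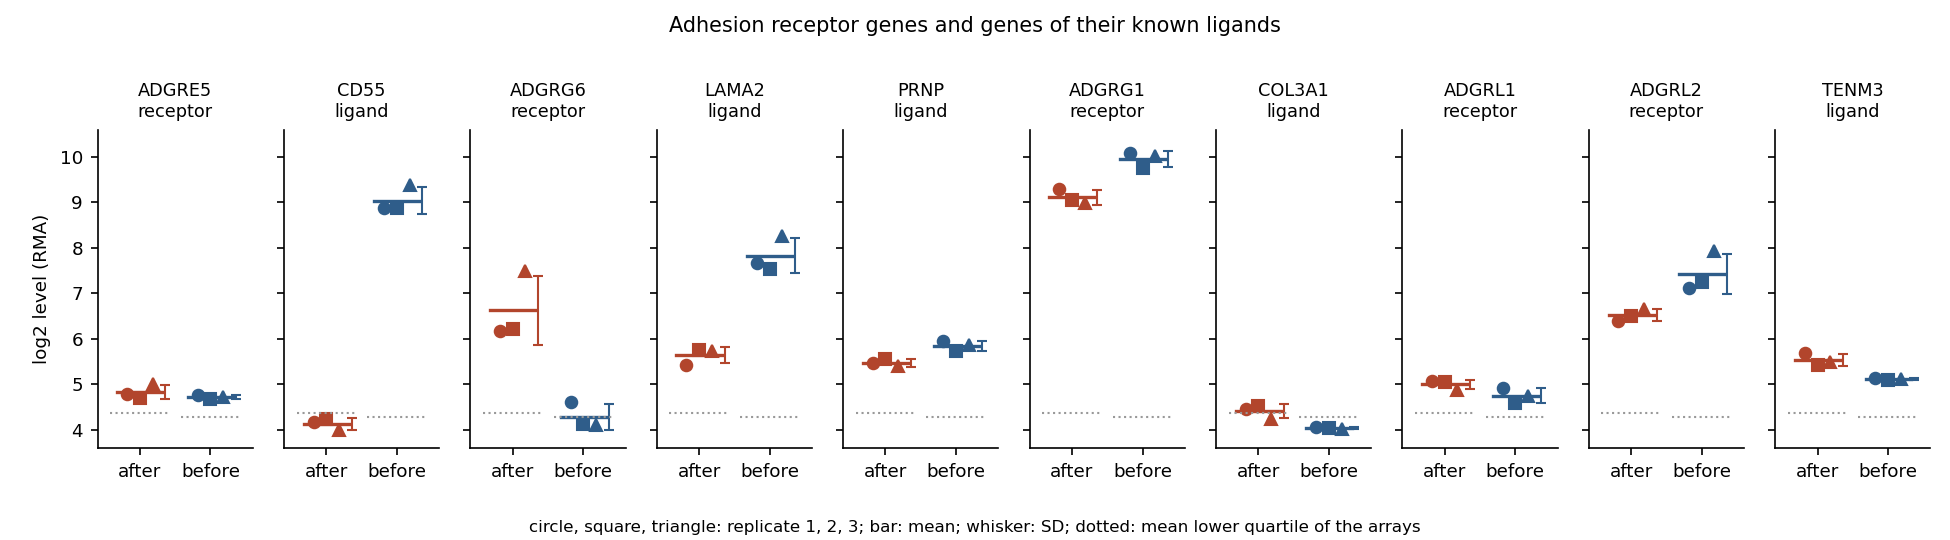
Log2 level on each array, after and before maturation, of 5 adhesion receptor genes and of genes of their known ligands, with mean and SD (n = 3). CD55 and LAMA2 lie lower after maturation on every array, ADGRE5 overlaps between the groups and ADGRG6 lies higher.

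Proteins that bind receptors or G proteins held the largest decrease of all members. GPRIN3 encodes a protein that binds activated G protein alpha subunits. It had log2 levels of 4.42, 4.50 and 4.73 after maturation, against 7.53, 7.21 and 7.61 before it. The groups were separated by over 2 log2 units. The difference of -2.90 ± 0.13 (SE) was a measured 7.46-fold lower level (limma adjusted p = 1.33e-05). On matured arrays 1 and 2 its level lay close to the lower quartiles of 4.37 and 4.45, so the measured fold is not exact. GPRIN3 stayed called with a negative difference in all 14 alternative fits, between -3.02 and -2.82 when single arrays were left out. GPRIN1, a relative first described in neurite outgrowth, was under the lower quartile on all 6 arrays with a difference near zero (-0.00092, adjusted p = 0.995). GPRASP2, which sorts receptors to degradation, had 6.32, 6.15 and 6.57 after maturation, against 7.46, 6.70 and 6.50 before it. Replicate 1 before maturation lay highest, the groups overlapped, and the difference of -0.54 did not pass the test (adjusted p = 0.168). It was -0.25 without that array. Its neighbour GPRASP1 had 0.10 and lay under the lower quartile on all 6 arrays. Beside GPRIN3, 7 of the 13 cumulus and granulosa markers fell, 2 rose and 4 were not called. Of the 10 oocyte markers 3 fell, 0 rose and 7 were not called. The part of either marker set was not tested.

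Downstream of the receptors, 1 of 11 G protein subunit genes and 2 of 15 desensitisation genes fell and 0 rose. Of all probes, 8.07% were called lower and 3.21% higher, so nothing is read from these counts. With the replicate block, 1 G protein subunit gene and 2 desensitisation genes were called higher as well. GNA14, an alpha subunit gene of the Gq class, was at 7.18, 7.18 and 7.11 after maturation, against 8.10, 7.87 and 8.16 before it (difference -0.89 ± 0.10 SE, limma adjusted p = 0.00119). RGS7, an inhibitor of G protein signalling that binds the orphan receptor GPR158 in the mouse brain, fell by 1.41 (adjusted p = 0.00439), with 2 of 3 matured arrays under their lower quartile. RGS4 fell by 1.18 (adjusted p = 0.0400), which did not hold without replicate 1 or 3 of either group.

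Class C members and membrane proteins of inner compartments had 0 calls among 8 genes, beside 3.21% of all probes called higher and 8.07% lower. GPR158 was at 7.43, 7.48 and 7.71 after maturation, against 7.79, 7.73 and 7.67 before it (difference -0.19 ± 0.10 SE, limma adjusted p = 0.269). GPRC5B, a retinoic acid-inducible receptor gene, was at 6.80, 6.59 and 6.72 after maturation, against 7.07, 6.90 and 7.16 before it. The difference of -0.34 did not pass the test (adjusted p = 0.0769). The groups did not overlap for GPRC5B, GPR180 and GPR155, like 14.4% of all probes in this direction. GPRC6A, a receptor gene for amino acids and calcium, had 0.10 and lay under the lower quartile throughout. GPR180 was at 6.76, 6.52 and 6.62 after maturation, against 6.82, 6.81 and 7.16 before it, a difference of -0.30 (adjusted p = 0.155). GPR155, which encodes a lysosomal cholesterol sensor, was at 3.96, 3.91 and 3.95 after maturation, against 4.10, 4.21 and 4.84 before it. Replicate 3 before maturation lay apart, and GPR155's difference of -0.44 (adjusted p = 0.149) became -0.21 without it. The GPR155 probe lay under the lower quartile on all 3 arrays after maturation and on 2 of 3 before it.

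GPR137 and GPR108, which encode proteins of lysosomes and of the Golgi, were among the 5 members with the brightest probes and had small differences. GPR137 ranged over its arrays between 9.16 and 9.30 after maturation, against 8.79 to 9.22 before it, a difference of 0.23 (limma adjusted p = 0.249). GPR108 was at 8.16, 8.29 and 8.09 after maturation, against 8.33, 8.42 and 7.91 before it, a difference of -0.04 (adjusted p = 0.856). For both genes the groups overlapped. GPR143, the ocular albinism gene of melanosomes, had -0.09.

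Receptors for protons, lipids and metabolites had 0 calls among 5 genes, beside 3.21% of all probes called higher and 8.07% lower. GPR183, the oxysterol receptor gene of lymphocytes, had a difference of 0.26, and GPR55, activated by lysophosphatidylinositol, had 0.20. The arrays did not overlap for these, nor for GPR18 in the lower direction (-0.08), beside 21.7% of all probes higher and 14.4% lower. GPR65, a proton sensor gene, had 0.16 and GPR132, a lipid receptor gene of immune cells, 0.14. Every one except GPR132 lay under the lower quartile on all 6 arrays, so low levels limit what these probes can show. Adjusted p from limma ran from 0.157 to 0.628.

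Among 17 other orphan receptors, 2 rose and 0 fell, beside 3.21% and 8.07% of all probes. A positive difference was found for 16 of them and for 65.4% of all probes. GPR182, an atypical chemokine receptor gene of endothelium, was at 5.43, 5.46 and 5.23 after maturation, against 5.08, 4.89 and 4.83 before it. It rose by 0.44 ± 0.11 (SE), a 1.36-fold higher level (limma adjusted p = 0.0373). All 6 measured endothelial markers had positive differences as well, with 0 called. So had 10 of 11 leukocyte and erythroid markers, with 1 called. The part of these cells was not tested. GPR146, a regulator of blood cholesterol in mice, was at 5.45, 5.61 and 5.41 after maturation, against 5.18, 5.08 and 5.05 before it. It rose by 0.39 ± 0.10 (SE), a 1.31-fold higher level (adjusted p = 0.0367). Both calls were fragile. GPR182 was not called without replicate 1 or 2 after maturation or replicate 2 or 3 before it (adjusted p up to 0.127), and GPR146 was called only without replicate 1 before maturation when single arrays were left out (other adjusted p up to 0.118). Neither was called with cyclic loess, and GPR146 was not called with a trended and robust estimate of the spread (adjusted p = 0.0539).

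GPR151, a receptor gene known from the habenula of the brain, had the brightest probe of the members. It was at 10.49, 10.75 and 10.85 after maturation, against 10.33, 10.50 and 10.15 before it. The groups overlapped by a small margin, and the difference was 0.37 ± 0.13 (SE, limma adjusted p = 0.107). GPR17, a receptor gene of oligodendrocyte precursors, was at 4.64, 4.74 and 4.57 after maturation, against 4.45, 4.36 and 4.13 before it (difference 0.33, adjusted p = 0.0903). GPR152 was at 5.38, 5.61 and 5.29 after maturation, against 5.18, 5.04 and 5.07 before it (difference 0.33, adjusted p = 0.0907). Neither overlapped between the groups, like 21.7% of all probes in this direction, and neither passed the test.

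GPR176, a receptor gene of the circadian clock in mice, had a difference of 0.29, GPR26 0.27, GPR15, a homing receptor gene of T cells, 0.27 and GPR153 0.25. All were without overlap, like 21.7% of all probes in this direction, and without passing the test. GPR75 (0.27), GPR139 (0.13), GPR1, a chemerin receptor gene (0.11), GPR22 (0.09), GPR85 (0.06), GPR63 (0.06) and GPR82 (0.00477) completed the positive side. GPR15, GPR22, GPR85 and GPR82 lay under the lower quartile on all 6 arrays. GPR153 did so on 2 of 3 arrays after maturation and on all 3 before it. Low levels limit what these probes can show. GPR52, a striatal receptor gene, was at 4.27, 4.24 and 4.16 after maturation, against 4.25, 4.41 and 4.99 before it. Its difference of -0.33 was -0.10 without replicate 3 before maturation, which lay highest. The GPR52 probe lay under the lower quartile on all 3 arrays after maturation and on 1 of 3 before it.

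All probes were split by mean level into 4 classes of equal size. The dimmest class held 18 members, of which 0 were called, beside 1.01% of probes called higher and 0.685% lower there. The second class held 22 members and all 4 rises, with a median difference of 0.26 beside 0.14 for all its probes and 4.90% of them called higher. In the third class 9 members had a median of -0.30 beside -0.0023 for all its probes, and 2 fell, beside 16.4% called lower. The brightest class held 4 members, of which ADGRG1 fell, beside 8.12% called lower.

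**Figure D5:**
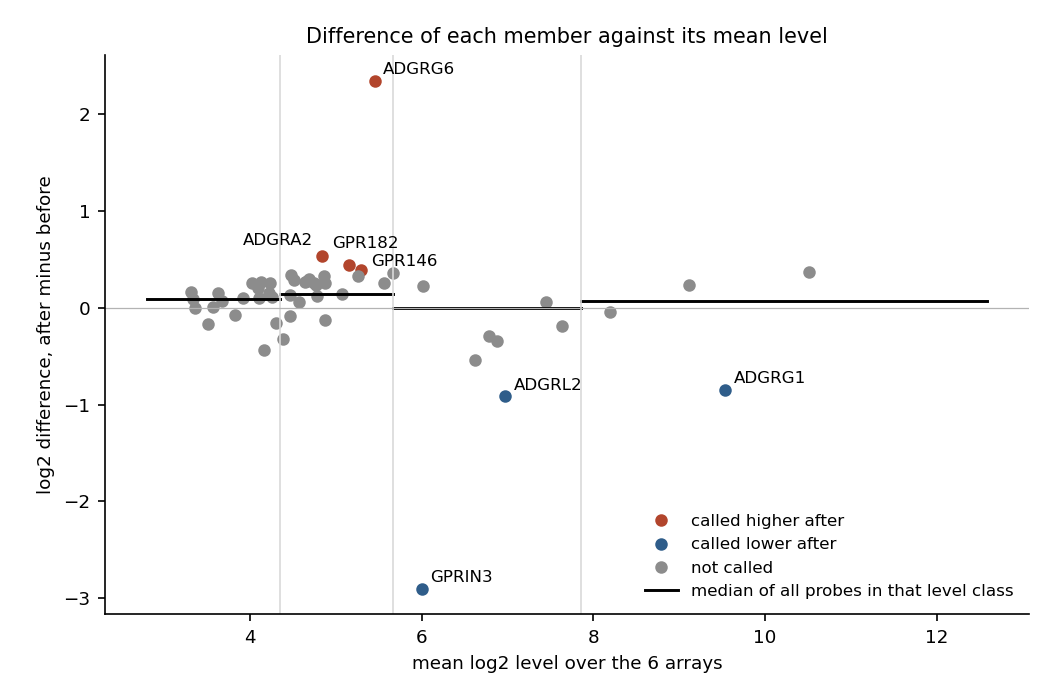
Log2 difference (after minus before maturation) of each of the 53 genes against its mean log2 level over the 6 arrays. Vertical lines part the 4 level classes of all probes and black bars give their median difference. The rises lie in the second class and the falls in the third and the brightest.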

How the data were processed

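The deposited table holds log2 expression values for 12258 probes on 6 Affymetrix arrays. The authors made them with RMA from 100 ng of total RNA per pool after amplification, per the submitters' processing notes and the labels' protocols. RMA as usually run subtracts background, quantile-normalizes arrays and summarises probes. Neither its version nor its options are stated in those notes, and the log2 scale was inferred from RMA and the values. Detection calls were not used here, and low levels are judged only against the lower quartile of each array. The number of arrays limits the precision.

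Probes were named by the platform annotation. Of 53 members 47 had an identifier in the RefSeq table (Sscrofa11.1), used for names and gene order only, and 0 changed their symbol. All probes were fitted with limma 3.58.1 in R 4.3.3 (lmFit, eBayes, two-sided, after minus before maturation), adjusted over all probes. On simulated arrays of this size for this comparison it called 40 of 40 probes at a log2 change of -2, 35 of 40 at -1, 34 of 40 at 1, and 12 of 40 at 0.5. In that simulation 12058 of 12258 probes were unchanged and the noise was independent between arrays. These rates are therefore not the sensitivity on the real arrays. Ratios were tested with SciPy 1.17.1. Tables used Python 3.11.15 and pandas 2.3.3, figures matplotlib 3.10.9.

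Same-numbered arrays deviated together from their group means (correlations of 0.283, 0.120 and 0.142). Differently numbered arrays had correlations of -0.168 to 0.0191. The replicate numbers in the titles may therefore pair the arrays, but the correlations are low. Deviations from the mean of 3 arrays are tied to each other, so this check cannot settle the pairing. The labels name the arrays biological replicates and give no shared source. The fit reported here has no block. With the replicate block 621 probes were called higher, beside 394 without it, and no member's call changed. Whether pools came from separate animals is not described, so p-values measure the spread between these pools. Arrays of a group differed by a median of 0.125 to 0.168, so none was a copy.

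Every member is named. Values on each array are given for called members, GPR3 and GPR12, the 5 brightest probes (as a range for GPR137) and the 5 largest uncalled differences in each direction. A few more were added after their values were seen. From each list of partner genes at most 4 called genes with the smallest p, some ligands of receptors described and a few uncalled genes of known role are given. The genes of 1 partner list are not reported here, although counts over all partner genes include them. Members and lists were chosen with earlier results of these data known. Alternatives were the replicate block, 4 other scalings, a filter on dim probes, another model of the spread, 1 probe per gene, a threshold of 0.1, other choices of members and leaving out each array.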

Additional observations from a re-analysis of the deposited data

How the results depend on the processing

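Of the 7 members past the test 0 changed direction in any of the 14 alternative fits. GPRIN3, ADGRG6 and ADGRA2 stayed called in all of them, and ADGRG1 in all but the fit with ribosomal protein genes held level. ADGRL2, GPR146 and GPR182 lost the call in some, as given above. The count of members called higher was 9 with a common median, 2 with cyclic loess, 42 with ribosomal protein genes held level, 8 at an adjusted p under 0.1, and 2 to 5 without single arrays. The count called lower was 4 at an adjusted p under 0.1 and 2 or 3 under the other alternatives. Counting only receptor families, or adding GPR83 and GPR137B (chosen after seeing the data), moved neither count by more than 1.5 times. Holding ribosomal protein genes level gave 14 called adhesion receptors. The members' median was 0.194 with a common median, 0.0833 after a second quantile normalization, 0.0422 with cyclic loess, 0.640 with ribosomal protein genes held level and 0.229 for the 35 members left without the dimmest 25% of probes. Over all probes, 621 were called higher with the replicate block, 915 with a common median, 596 after a second quantile normalization, 254 with cyclic loess, 9847 with ribosomal protein genes held level, 985 at an adjusted p under 0.1, and 103 to 434 without single arrays. Called lower were 494 with ribosomal protein genes held level and 531 to 1013 without single arrays. Of the partner genes 56 were called with ribosomal protein genes held level, 23 at an adjusted p under 0.1, and 6 to 12 without single arrays, beside 15, and 21 with the replicate block.

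Holding ribosomal protein genes level adds 1 amount to every difference and so turned several values below zero to positive: ADGRV1 (0.371), ADGRG3 (0.345), ADGRL4 (0.331), GPR18 (0.422), GPR158 (0.315), GPRC5B (0.162), GPR108 (0.458), GPR143 (0.411), GPR180 (0.204), GPR155 (0.0609), GPRIN1 (0.501), GPR52 (0.176), PRKAR1A (0.0365) and PRNP (0.122). A common median turned GPR108 (0.0123) and GPRIN1 (0.0551). A second quantile normalization turned ADGRB2 (-0.0269), GPR85 (-0.0120), GPR82 (-0.0568) and GPR108 (0.00758), and cyclic loess ADGRB2 (-0.0466), GPRC6A (-0.00168), GPR85 (-0.0235) and GPR82 (-0.0801). Without single arrays the sign also changed for ADGRB2 (-0.0553 to 0.197), GPR132 (-0.0789 to 0.292), GPR108 (-0.198 to 0.0556), GPRASP1 (-0.0190 to 0.206), GPRIN1 (-0.0297 to 0.0457), GPR85 (-0.0750 to 0.190), GPR63 (-0.0261 to 0.155) and GPR82 (-0.0580 to 0.0630). The cause of the other changes was not tested. Probes under the arrays' lower quartile limit the folds of ADGRG6, CD55 and COL3A1, and levels close to it limit that of GPRIN3.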
